A study of Mus musculus with 45 samples.

Results

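The genes described here were grouped as genes of the motile cilium, the beating hair of ependymal cells. They were followed in nucleus accumbens RNA from 45 mice. Not all encode parts of the cilium, since Foxj1 encodes a transcription factor, and whether ependymal cells are the main source of each was not tested. They were chosen by name: symbols of the axonemal dynein heavy chains (Dnah), radial spoke head proteins (Rsph) and cilia and flagella associated proteins (Cfap), together with Ccdc153, Foxj1, Tmem212 and Dynlrb2, wherever the mean level over all libraries was at least 0.2 CPM (counts for every 1000000 reads assigned to genes). Of 24421 gene symbols in the files, 39 matched the names and 38 reached that level. Cfap58 lay just under it at 0.183 CPM, and Rsph14 at 0.241 and Rsph6a at 0.278 lay just over it. A filter on low counts then left 36 of the 38 among 15852 genes tested, and Rsph14 and Rsph6a were not tested.

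All mice were females of HDID-1, a line selectively bred for drinking to high blood alcohol, at selection generation S35.G37; their age was not given in the sources used here. Every mouse, water drinkers included, carried the same pair of adeno-associated viruses in the nucleus accumbens of both sides, 0.5 uL of each: rAAV2/5-CMV-Cre-GFP, in which a general promoter drives Cre, and rAAV2-hSyn-DIO-hM3Dq-mCherry, in which a neuronal promoter drives the receptor hM3Dq once Cre has inverted the construct. hM3Dq couples to Gq and is activated by the ligand clozapine N-oxide (CNO). Drinking sessions with alcohol or water ran for 6 weeks on a limited-access schedule. CNO-treated mice were given 1 mg/kg from week 2 to week 5 and vehicle before and after, and the controls had vehicle throughout. Of the alcohol drinkers 12 had CNO and 11 vehicle, of the water drinkers 11 had CNO and 11 vehicle, and no group lacked the viruses.

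Ependymal cells line the ventricles of the brain and carry tufts of motile cilia that move cerebrospinal fluid. A motile cilium is built on a ring of microtubule doublets: outer dynein arms supply most of the power, inner arms shape the beat, and radial spokes pass signals between the central microtubule pair and the arms. The transcription factor Foxj1 switches on the genes of motile cilia, and factors of the RFX family bind X-box motifs in the promoters of many ciliary genes. Most neurons and some glia carry a single non-motile primary cilium, which lacks dynein arms and radial spokes.

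The libraries held 26839604 to 39521102 reads assigned to genes, and the members summed to 318 to 479 CPM in a library. Between 15.6% and 21.9% of uniquely aligned reads fell outside annotated genes. In a tissue punch, fewer cells of a type and less RNA per cell cannot be told apart. Listed cortical neuron markers summed to between 59.5 CPM (water with CNO, mouse 1) and 896 CPM (water with CNO, mouse 2), and listed striatal neuron markers to between 4722 and 7745 CPM, and mice are numbered here within their group. Mouse 5 of the alcohol vehicle group stood apart before any comparison, with the highest summed microglia markers (1270 CPM against a median of 423), the highest astrocyte markers (1902 CPM against a median of 1215) and the highest Foxj1. Both defining markers were present in every library, Foxj1 with at least 97 reads and Ccdc153 with at least 9. Which cells these reads came from was not tested.

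Promoter sequence from RefSeq (GRCm38.p6), the 250 bases before the transcript start, was available for 31 of the 36 members tested and is shown for those that hold the X-box letters GTTGNNNNNCAAC, GTTGNNNNNNCAAC or GTTGNNNNNNNCAAC. Each pattern reads the same on both strands. These letters were chosen after the promoters had been looked at. They occurred in 6 of the 31 members with promoter sequence (19.4%) and in 7 of 41 other motile cilia genes (17.1%). Of primary cilium genes 1 of 14 held them (7.14%). A gene was counted if any of its promoters held the letters. Over all 32851 promoters, each counted by itself, the share was 1.05%, so the shares of genes and of promoters are in unlike units. In the lines that follow the capitals mark the match, and each stretch runs 5′ to 3′ on the gene's own strand.
Ccdc153: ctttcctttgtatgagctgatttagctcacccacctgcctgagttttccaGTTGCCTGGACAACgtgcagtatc
Dynlrb2: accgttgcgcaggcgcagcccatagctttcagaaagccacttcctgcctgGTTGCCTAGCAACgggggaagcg
Cfap44: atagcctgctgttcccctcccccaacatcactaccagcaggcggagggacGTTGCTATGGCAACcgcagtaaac
Dnah6: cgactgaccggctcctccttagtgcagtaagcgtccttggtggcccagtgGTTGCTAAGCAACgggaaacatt
Dnah7a: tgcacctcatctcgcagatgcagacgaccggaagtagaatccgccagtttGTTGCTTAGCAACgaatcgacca
Dnah7b: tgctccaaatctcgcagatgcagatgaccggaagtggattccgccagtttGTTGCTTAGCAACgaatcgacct

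The Ccdc153 stretch lies at chr9:44240475-44240548 on the plus strand, that of Dynlrb2 at chr8:116504914-116504986 on the plus strand, and that of Cfap44 at chr16:44394722-44394795 on the plus strand. The Dnah6 stretch lies at chr6:73221645-73221717 on the minus strand, that of Dnah7a at chr1:53706819-53706891 on the minus strand, and that of Dnah7b at chr1:46066779-46066851 on the plus strand. The first base of the match lay 152 bases before the start in Ccdc153, 51 in Dynlrb2, 27 in Cfap44, 36 in Dnah6, 57 in Dnah7a and 24 in Dnah7b. Dnah7a and Dnah7b are near-identical copies and carry the same match. A forkhead motif, TGTTTAC on either strand, was found in 3 of the 31 members (9.68%, Cfap43, Cfap20 and Dnah17). It was found in 3.17% of all promoters, and these shares are in the same unlike units. A match is a description of the letters, not evidence of binding.

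The members covered a wide range of levels, and the most abundant were Cfap genes. Per kilobase of coding sequence, over all 45 libraries, the mean was 90.3 CPM for Cfap20, a protein at the inner junction of the microtubule doublets, 76.1 for Cfap36, which binds the ciliary GTPase Arl3, and 27.6 for Cfap97. Among radial spoke proteins the mean was 16.6 CPM per coding kilobase for Rsph9, 5.09 for Rsph1 and 3.41 for Rsph3a. Per kilobase of all exons the mean was 28.5 CPM for Cfap36, 11.7 for Cfap20, 8.77 for Cfap97 and 8.60 for Rsph9. The order of Cfap20 and Cfap36 thus depends on the length used. The 3 most abundant inner arm heavy chains had 2.22 for Dnah1, 1.97 for Dnah6 and 0.875 for Dnah2. The 3 most abundant outer arm heavy chains had 0.375 for Dnah5, 0.267 for Dnah9 and 0.143 for Dnah17. The arms overlapped, since the inner arm chains Dnah7b (0.346), Dnah7a (0.274) and Dnah10 (0.166) lay below Dnah5. Among the markers the mean was 4.73 CPM per coding kilobase for Foxj1, 2.00 for Ccdc153, 1.90 for Dynlrb2 and 0.971 for Tmem212.

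How much a gene varied from mouse to mouse differed as widely. The coefficient of variation of CPM over the 45 libraries was 6.43% for Cfap20 and 6.80% for Cfap97, and 76.5% for Ccdc153 and 94.9% for Tmem212.

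Foxj1 ranged from 2.85 to 14.5 CPM. In the alcohol CNO group its lowest, median and highest values were 2.85, 4.27 and 8.05 CPM. In the alcohol vehicle group they were 3.07, 4.54 and 14.5 CPM, in the water CNO group 3.55, 5.69 and 9.31, and in the water vehicle group 3.15, 6.85 and 11.5. The groups overlapped throughout, and libraries at 8 CPM or more numbered 1 of 12 in alcohol with CNO, 4 of 11 in alcohol with vehicle, 2 of 11 in water with CNO and 5 of 11 in water with vehicle.

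**Figure D1:**
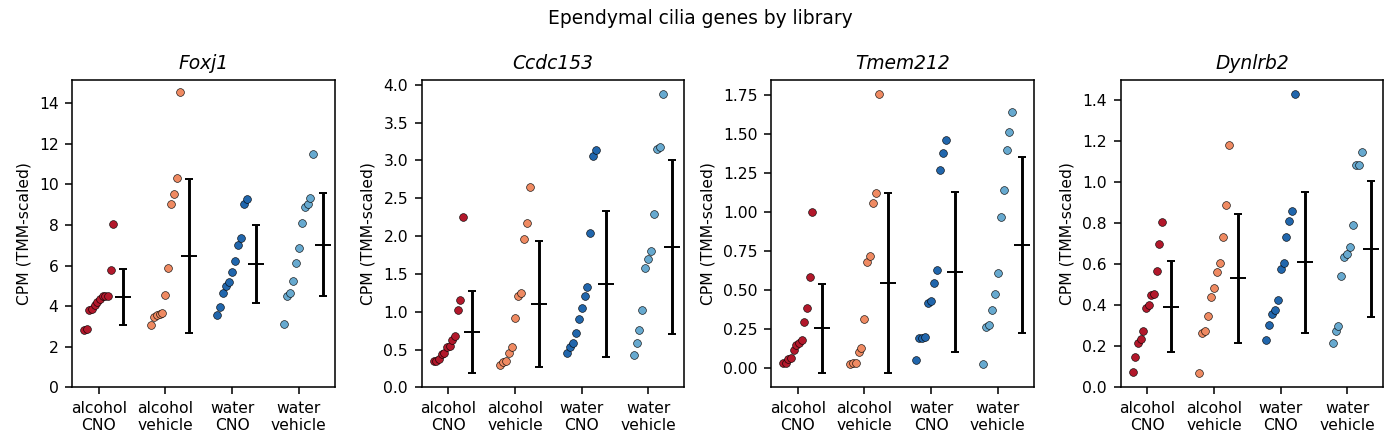
Level of Foxj1, Ccdc153, Tmem212 and Dynlrb2 in each library in CPM after TMM scaling, by group (12, 11, 11 and 11 mice), with points sorted by value and the mean ± SD beside them. The groups overlap for all 4 genes, and the Foxj1 point at 14.5 CPM is mouse 5 of the alcohol vehicle group.

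Ccdc153, a coiled-coil protein and a common marker of ependymal cells, had lowest, median and highest values of 0.349, 0.542 and 2.26 CPM in alcohol with CNO, and 0.298, 0.914 and 2.65 in alcohol with vehicle. In water with CNO they were 0.459, 1.05 and 3.14 CPM, and in water with vehicle 0.434, 1.70 and 3.87. Tmem212, a membrane protein also used as an ependymal marker, had medians of 0.156 CPM in alcohol with CNO, 0.314 in alcohol with vehicle, 0.433 in water with CNO and 0.610 in water with vehicle, and ranged from 0.0271 to 1.75 CPM over all libraries. Dynlrb2, a roadblock-type dynein light chain, had medians of 0.395, 0.486, 0.576 and 0.650 CPM in the same order and a range of 0.0691 to 1.43 CPM. The order of the group medians was the same for Foxj1, Ccdc153, Tmem212 and Dynlrb2, and neighbouring groups in that order overlapped over most of their range.

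Across mice, 15 of the other 35 members tested rose and fell with Foxj1. These were called by a positive Pearson correlation of log2 CPM with a permutation p adjusted over all 15851 other genes under 0.05. They made up 42.9% of the members, against 3.56% of all genes (565), and no member was called negative, against 0.442% of all genes. By Spearman's rank correlation 13 members (37.1%) were called, against 1.16% of all genes; Cfap45 and Cfap221 were not. The median r was 0.33 over the members and -0.02 over all genes. Libraries are the points of these correlations, and genes of the same cells share them, so the counts over genes are not independent.

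The 5 members most like Foxj1 were Ccdc153, Tmem212, Cfap52, Cfap43 and Cfap126. Ccdc153 followed Foxj1 with r = 0.88 and rho = 0.90, and each had the smallest p that 100000 permutations can give, 1e-05 (adjusted over all genes to 0.00133 for r and 0.00178 for rho). Without the pair of libraries farthest from the Foxj1 median (mouse 5 of alcohol with vehicle and mouse 6 of water with vehicle) the r of Ccdc153 was 0.91, and within the 4 groups it lay between 0.86 and 0.89. Tmem212 had r = 0.82 and rho = 0.85. Cfap52, a protein inside the doublet microtubules, had r = 0.82 and rho = 0.77. Cfap43, part of the tether of an inner arm dynein, had r = 0.81 and rho = 0.75. Cfap126, a protein of the basal body region also called Flattop, had r = 0.80 and rho = 0.80.

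The members that reached r = 0.5 came from every role class, and in the dynein heavy chains, the radial spoke proteins and the Cfap genes other members of the class stayed under it. Of the outer arm heavy chains, Dnah9 (r = 0.78), Dnah11 (0.76) and Dnah5 (0.56) followed Foxj1. Dnah17 (r = -0.03) and Dnah8 (0.03), heavy chains best known from sperm tails, did not reach that value. Of the inner arm heavy chains only Dnah10 (r = 0.70) did, while Dnah7a (0.28), Dnah6 (0.24), Dnah7b (0.20), Dnah1 (0.18) and Dnah2 (0.16) stayed under it. Of the radial spoke proteins tested, Rsph4a (r = 0.67) and Rsph1 (0.56) reached it, and Rsph9 (0.33), Rsph3b (0.21) and Rsph3a (0.11) did not.

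Among Cfap genes, those at r = 0.5 or more were Cfap52, Cfap43, Cfap126, Cfap57 (0.56) and Cfap45 (0.52). Cfap221 (0.45), a protein of the central apparatus, was also called, but it was not called without the pair of far libraries (r = 0.45, adjusted permutation p = 0.141). Cfap45, a protein inside the doublets, was not called there either (r = 0.48, adjusted permutation p = 0.0700). The 5 members least like Foxj1 were Cfap97 (r = -0.14), Cfap74 (-0.09), Dnah17, Cfap61 (-0.01) and Dnah8. The 3 most abundant members per coding kilobase were among those that did not follow Foxj1, with r of 0.10 for Cfap20, 0.06 for Cfap36 and -0.14 for Cfap97.

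In all, 14 of 35 members had r of at least 0.5, against 1.85% of all genes, and 8 had r of at least 0.7, against 0.397%. Within each of the 4 groups all 14 had a positive r, with a median of 0.72 in alcohol with CNO, 0.79 in alcohol with vehicle, 0.71 in water with CNO and 0.81 in water with vehicle. The lowest of these values was 0.20, that of Rsph1 in alcohol with CNO. The titles carry S numbers that were read as 8 consecutive blocks, which the titles do not state. As deviations from the block means, r was 0.88 for Ccdc153, 0.82 for Tmem212 and 0.82 for Cfap52. The X-box letters did not sort with this division. Of Foxj1 and the 14, promoter sequence was available for 12 genes, and 2 held the letters (Ccdc153 and Dynlrb2). Of the other members, 4 of the 19 with sequence held them (Cfap44, Dnah6, Dnah7a and Dnah7b).

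Foxj1 itself showed no called relation with the measures of the libraries. Its r was 0.11 with the number of gene reads (permutation p = 0.476) and -0.11 with the share of reads outside genes. Tube numbers in the titles separate the fluids completely, so tube order and fluid cannot be told apart. Within alcohol drinkers r with tube number was 0.40 (rho 0.32, 23 mice, permutation p = 0.0607, adjusted over 4 relations to 0.243), and within water drinkers it was -0.13 (22 mice).

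**Figure D2:**
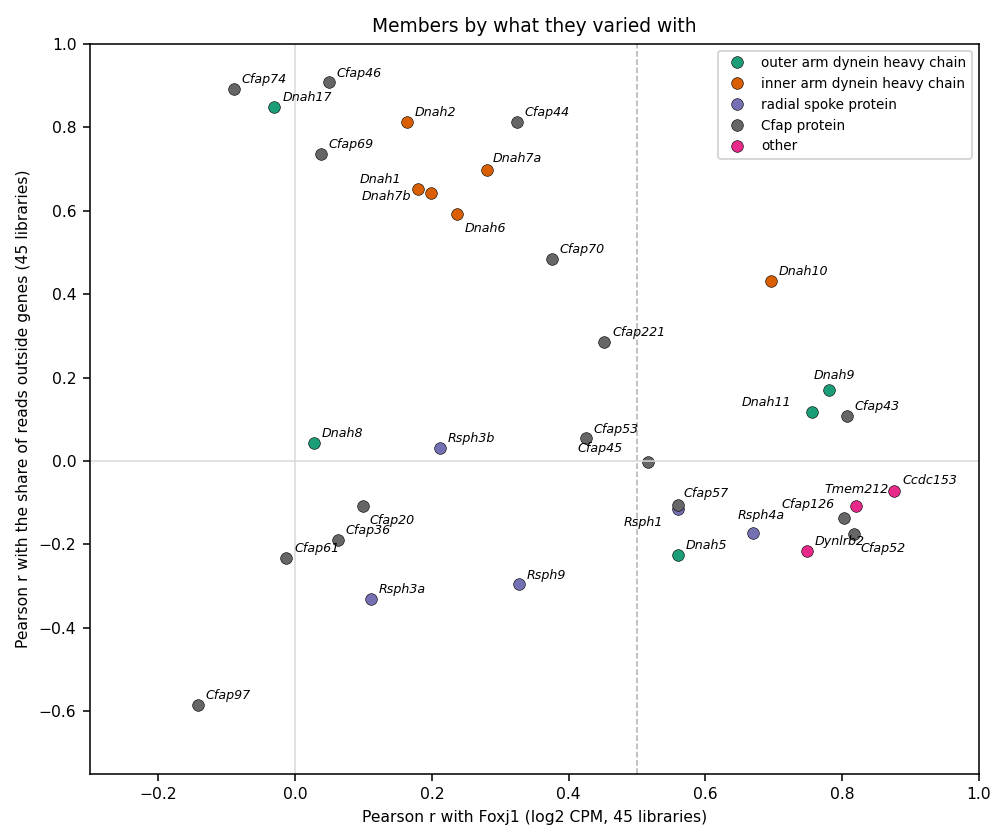
Each of the other 35 members by its Pearson r with Foxj1 (x axis) and with the share of uniquely aligned reads that fell outside annotated genes (y axis), over 45 libraries, coloured by role. Members to the right of the dashed line at 0.5 lie between -0.23 (Dnah5) and 0.17 (Dnah9) on the y axis apart from Dnah10 (0.43), and those at the top, such as Cfap46 (0.91) and Cfap74 (0.89), lie near 0 on the x axis.

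Many of the members that did not follow Foxj1 moved with a measure of the libraries. By a permutation p adjusted over all 15852 genes, 12 of 36 members (33.3%) were positively related to the share of uniquely aligned reads outside annotated genes, against 26.7% of all genes, and 1 was negatively related, against 26.9%. The highest r was 0.91 for Cfap46 and 0.89 for Cfap74, both of the central apparatus, followed by 0.85 for Dnah17 and 0.81 each for Cfap44 and Dnah2. Cfap69 (0.74), Dnah7a (0.70), Dnah1 (0.65), Dnah7b (0.64), Dnah6 (0.59), Cfap70 (0.49) and Dnah10 (0.43) were called as well. Cfap97 was the negative member, at -0.59. The positive share of the members is near that of all genes, so this relation is not particular to cilia genes. Foxj1, Ccdc153, Tmem212 and Dynlrb2 had r of -0.11, -0.07, -0.11 and -0.21 with it, and none was called.

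Genes outside the set that mark ependymal cells or motile cilia followed Foxj1 as well. Of 11 ependymal markers listed as non-ciliary, 10 (90.9%) were called positive at an adjusted permutation p under 0.05. Whether each has a part in the cilium was not checked. The highest were Fam216b (r = 0.90, rho = 0.89), Hdc (r = 0.84, rho = 0.86), which makes histamine, and Calml4 (r = 0.77, rho = 0.72). Fam216b had the highest r of all genes. Of 50 other motile cilia genes, 27 (54.0%) were called, led by Wdr63 (r = 0.89), Dnali1 (0.88), a light chain of the inner arms, and Lrrc23 (0.87), a radial spoke protein. Of 8 genes of the multiciliated cell programme, 1 was called, the RFX factor Rfx2 (r = 0.62); Gmnc had r = 0.41, Myb 0.36 and Rfx3 -0.20. None of 16 primary cilium genes was called, and the largest of their correlations in size included those of Mchr1 (r = -0.31) and Ift122 (0.28).

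Markers of other cell types moved with Foxj1 less closely. Of 7 choroid plexus genes tested (12 listed), 1 was called: Otx2 (r = 0.45), followed by Enpp2 (0.37) and Sostdc1 (0.26). The list summed to 169 to 260 CPM, most of it from genes that other brain cells express as well, such as Enpp2 with a mean of 148 CPM. The subventricular zone adjoins the ependyma. Of 12 genes of its neuroblasts and progenitors, 1 was called (8.33%), and 1 was called by Spearman's correlation. The called gene is not reported here. Top2a had r = 0.40 and Cdk1 0.39, and neither was called. Of 6 septum markers Prdm16 was called (r = 0.54), with Crhr2 at 0.39 and Zic4 at 0.25. Of 6 astrocyte genes, Gfap (r = 0.48) and Aldh1l1 (0.45) were called, with Aqp4 at 0.44. Of 7 microglia genes, C1qb (0.50) and C1qc (0.49) were called, with C1qa at 0.42. By Spearman's correlation no astrocyte, microglia or choroid plexus gene was called. No striatal neuron gene was called, and the largest correlations in size were Tac1 (-0.39), Pde10a (-0.31) and Pdyn (-0.26). None was called among cortical neuron genes (Fezf2 0.19, Neurod6 0.13), oligodendrocyte genes (Cldn11 0.19, Mobp 0.15, Mag 0.11) or interferon-induced genes (Oasl2 0.37, Ifit3 0.37, Irf7 0.35). Whether differences in the tissue held by the punches produced the spread of Foxj1 was not tested.

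**Figure D3:**
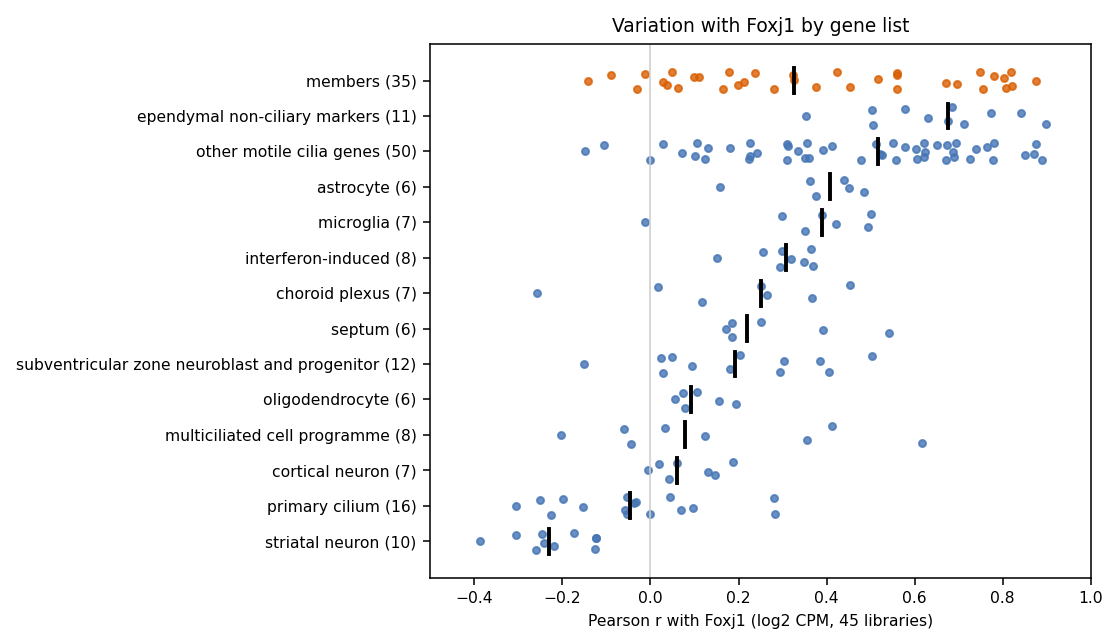
Pearson r with Foxj1 over 45 libraries for each member (orange) and each gene of 13 marker lists (blue), with the number of genes in brackets and a black bar at each median. Ependymal markers listed as non-ciliary and other motile cilia genes lie to the right, up to 0.90, and striatal neuron genes lie to the left of 0.

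Alcohol drinking was compared with water to ask whether these genes differ with the fluid. No member passed the threshold of an adjusted p under 0.05 in edgeR's quasi-likelihood test. This held under vehicle, under CNO and averaged over treatments, with 0 of 36 called in each, against 0% of the 15852 genes in each of the 3 comparisons. DESeq2 and limma called none of them either. Averaged over treatments, 29 of the 36 members had a lower fitted level in alcohol drinkers, against 48.1% of all genes, and the median log2 fold change was -0.09. At an unadjusted p under 0.05, 8 members were lower and 0 higher, against 5.03% of all genes lower and 6.96% higher.

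The 4 markers were lower in alcohol drinkers by estimates that did not pass. The mean log2 fold change averaged over treatments was -0.81 ± 0.28 (SE) for Ccdc153 (edgeR adjusted p = 0.285), -0.87 ± 0.40 for Tmem212 (edgeR adjusted p = 0.375), -0.47 ± 0.23 for Dynlrb2 (edgeR adjusted p = 0.416) and -0.28 ± 0.17 for Foxj1 (edgeR adjusted p = 0.494). The smallest p of any member was that of Cfap20, with a difference of -0.09 ± 0.03 on the log2 scale (edgeR adjusted p = 0.259). Its lowest, median and highest values were 46.4, 50.8 and 53.6 CPM in alcohol with CNO, and 47.0, 50.8 and 56.9 in alcohol with vehicle. In water with CNO they were 48.7, 54.4 and 59.6 CPM, and in water with vehicle 51.4, 53.9 and 59.5, so the fluids overlapped in each treatment. Cfap53, a doublet protein needed for left-right patterning, differed by -0.62 ± 0.22 and was measured with 0 to 32 reads a library, with 1 library at 0. Cfap70 differed by -0.31 ± 0.13 and Cfap36 by -0.11 ± 0.05.

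Under vehicle alone, 33 of 36 members were lower with alcohol, against 49.2% of all genes, with a median of -0.11. Before adjustment, at p under 0.05, 4 were lower and 0 higher, against 2.42% of all genes lower and 5.94% higher. Log2 fold changes there were -0.10 ± 0.04 for Cfap20, -0.76 ± 0.30 for Cfap53, -0.16 ± 0.07 for Cfap36, -0.41 ± 0.19 for Cfap70 and -0.74 ± 0.40 for Ccdc153. Tmem212 (-0.52 ± 0.54), Dynlrb2 (-0.33 ± 0.33) and Foxj1 (-0.12 ± 0.23) had estimates no more than about as large as their errors. The Foxj1 difference was -0.31 without mouse 5 of alcohol with vehicle, -0.45 without mice 5 and 10 of that group, and -0.02 without mouse 6 of water with vehicle.

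Under CNO, 28 of 36 members were lower with alcohol, against 48.2% of all genes, with a median of -0.10. Before adjustment, at p under 0.05, 4 were lower and 0 higher, against 3.66% of all genes lower and 2.85% higher. The log2 fold change was -0.44 ± 0.18 for Rsph3b, -0.08 ± 0.04 for Cfap20, -0.89 ± 0.40 for Ccdc153, -1.23 ± 0.59 for Tmem212, -0.62 ± 0.34 for Dynlrb2 and -0.45 ± 0.23 for Foxj1. The smallest edgeR adjusted p of any member was 0.465 under vehicle and 0.738 under CNO.

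Other motile cilia genes and ependymal markers gave the same count of calls. Of 50 other motile cilia genes 43 were lower with alcohol averaged over treatments (median -0.11). Of 11 ependymal markers listed as non-ciliary 10 were lower (median -0.08), and none of either list passed. In the same comparison all 7 cortical neuron genes were lower as well, with a median of -0.22, which is larger in size than that of the members. All 6 astrocyte, all 7 microglia, all 6 oligodendrocyte and all 7 choroid plexus genes were higher, with medians of 0.05, 0.15, 0.07 and 0.08. None of these genes passed, and their part in the members' differences was not tested.

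CNO was compared with vehicle to ask whether these genes differ with repeated CNO in mice that carry hM3Dq. No group lacked the viruses, so activation of hM3Dq and any other effect of CNO cannot be told apart. No member passed in edgeR's test. Averaged over fluids 0 of 36 were called, against 0.889% of all genes (141). In alcohol drinkers 0 of 36 were called, against 0.871% (138), and in water drinkers 0 of 36, against 0.0694% (11). DESeq2 and limma called no member in these comparisons. Among the listed non-members only interferon-induced genes passed, and all 8 of them (Isg15, Irf7, Ifit1, Ifit3, Oasl2, Mx1, Mx2 and Cxcl10) were lower with CNO averaged over fluids, with a median log2 fold change of -2.02. Averaged over fluids 25 of the 36 members were lower with CNO, against 49.8% of all genes, with a median of -0.05. At an unadjusted p under 0.05, 1 was lower and 1 higher, against 5.95% of all genes lower and 3.35% higher. In the same comparison 41 of 50 other motile cilia genes (median -0.07) and 10 of 11 ependymal markers listed as non-ciliary (median -0.11) were lower. So were all 7 microglia genes (median -0.23), 9 of 10 striatal neuron genes (median -0.05) and 5 of 6 astrocyte genes (median -0.05), while all 7 cortical neuron genes were higher (median 0.19). None of the genes in these lists passed, and their part in the members' differences was not tested.

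The smallest p was that of Cfap69, a protein of sperm tails and olfactory cilia, which differed by 0.21 ± 0.08 on the log2 scale, higher with CNO (edgeR adjusted p = 0.294). Its lowest, median and highest values were 12.4, 15.9 and 21.8 CPM in alcohol with CNO and 10.7, 13.6 and 17.1 in alcohol with vehicle, 11.7, 16.4 and 20.5 in water with CNO and 9.98, 14.4 and 18.6 in water with vehicle. The treatments overlapped in both fluids. Cfap69 moved with the share of reads outside genes (r = 0.74); with that share as a covariate, an alternative added after the data had been seen, it was the only member called in any contrast, with a log2 fold change of 0.19 and an edgeR adjusted p of 0.0386. Foxj1 differed by -0.38 ± 0.17 (edgeR adjusted p = 0.431), lower with CNO. Without mouse 5 of alcohol with vehicle, which has its highest value, the difference was -0.29. The difference was -0.42 ± 0.22 for Cfap53, -0.19 ± 0.10 for Cfap43, -0.52 ± 0.28 for Ccdc153, -0.73 ± 0.40 for Tmem212 and -0.30 ± 0.23 for Dynlrb2.

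In alcohol drinkers 22 of 36 members were lower with CNO, against 48.3% of all genes, with a median of -0.03. Before adjustment, at p under 0.05, 1 was lower and 1 higher, against 5.86% of all genes lower and 1.46% higher. The log2 fold change was 0.29 ± 0.11 for Cfap69, -0.55 ± 0.23 for Foxj1, -1.09 ± 0.59 for Tmem212, -0.59 ± 0.41 for Ccdc153, -0.64 ± 0.44 for Cfap52 and -0.44 ± 0.34 for Dynlrb2. The Foxj1 difference was -0.35 without mouse 5 of alcohol with vehicle and -0.22 without mice 5 and 10. Cfap52 rests on 1 to 50 reads a library.

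In water drinkers 29 of 36 were lower with CNO, against 50.4% of all genes, with a median of -0.09. At an unadjusted p under 0.05, 0 were lower and 1 higher, against 2.54% of all genes lower and 3% higher. The log2 fold change was 0.42 ± 0.19 for Rsph3b, -0.56 ± 0.29 for Cfap53, -0.20 ± 0.14 for Cfap43, -0.27 ± 0.19 for Dnah6 and -0.18 ± 0.14 for Dnah2. It was -0.45 ± 0.39 for Ccdc153, -0.21 ± 0.24 for Foxj1, -0.37 ± 0.54 for Tmem212 and -0.16 ± 0.33 for Dynlrb2. The alcohol and CNO comparisons share libraries, so their directions are not independent of each other.

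Whether the response to CNO differed between the fluids was tested as an interaction of fluid and treatment, and 0 of 36 members passed in edgeR's test, against 0% of all genes. At an unadjusted p under 0.05, 0 members were lower and 0 higher, against 1.79% and 1.34% of all genes, and DESeq2 and limma called none. The interaction was below 0 in 14 of 36 members, against 53.7% of all genes, with a median of 0.03. It was -0.38 ± 0.26 for Rsph3b, 0.17 ± 0.12 for Cfap74, 0.25 ± 0.19 for Dnah2, 0.12 ± 0.09 for Cfap36 and 0.29 ± 0.24 for Dnah7b. For Foxj1 it was -0.33 ± 0.33, for Tmem212 -0.71 ± 0.79, for Dynlrb2 -0.29 ± 0.47 and for Ccdc153 -0.15 ± 0.56. The smallest edgeR adjusted p of a member was 0.983.

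**Figure D4:**
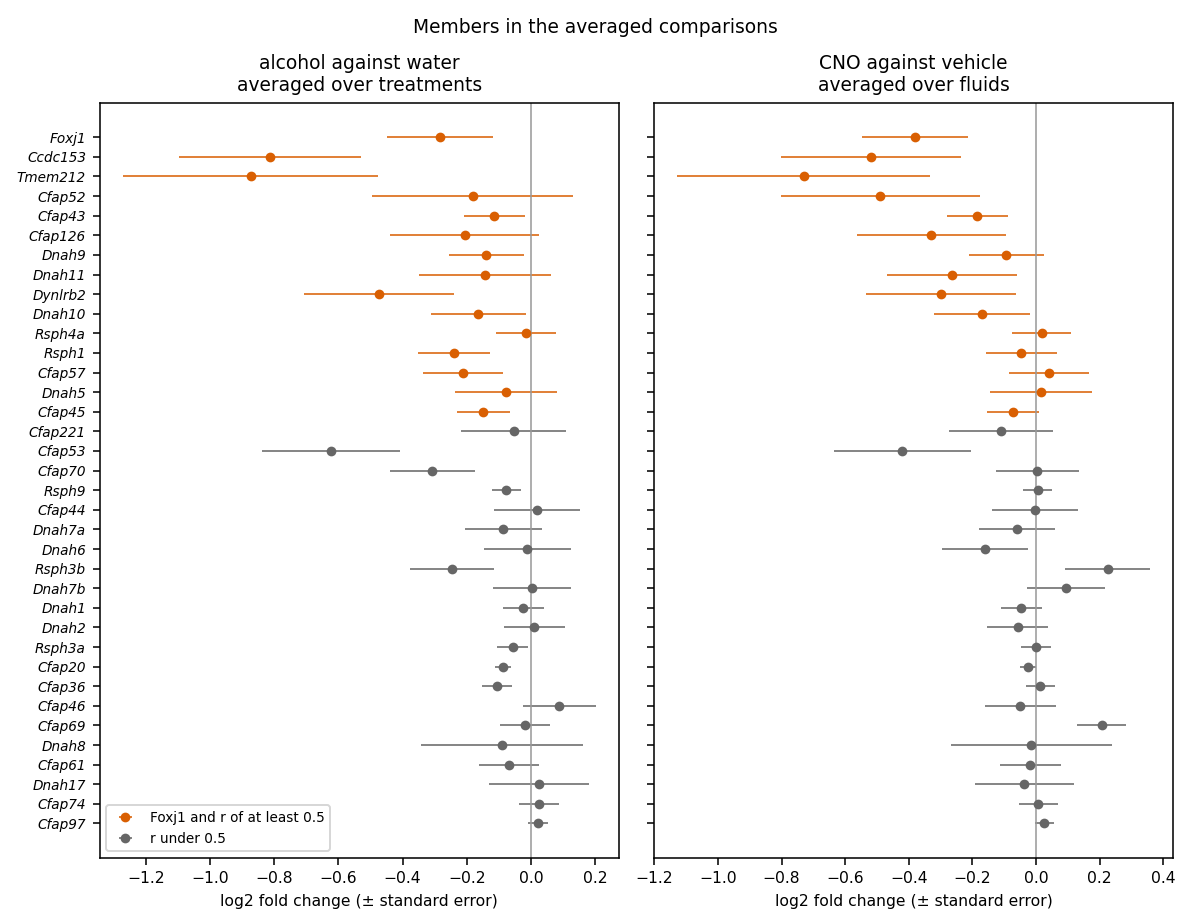
Log2 fold change ± standard error of the 36 members tested, for alcohol against water averaged over treatments (left) and CNO against vehicle averaged over fluids (right), ordered from top to bottom by r with Foxj1. Foxj1 and the 14 members with r of at least 0.5 (orange) lie at or left of 0 on the left side with errors up to 0.40, and none of the 36 passed the threshold in either comparison.

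Foxj1 and the 14 members with r of at least 0.5 were chosen from these libraries, so their shared direction is a description. Summed, they ranged from 24.3 to 53.8 CPM with a median of 34.9 in alcohol with CNO, and from 22.0 to 59.5 with a median of 33.1 in alcohol with vehicle. In water with CNO the sum ranged from 28.4 to 62.5 CPM with a median of 38.7, and in water with vehicle from 26.8 to 61.9 with a median of 39.9. The 4 groups overlapped over most of their range. All 15 were lower with alcohol averaged over treatments and under CNO, as were 14 and 13 of the 21 other members tested, against 48.1% and 48.2% of all genes. Under vehicle 13 of the 15 and 20 of the 21 others were lower, against 49.2% of all genes. With CNO, 14 of the 15 and 8 of the 21 were lower in alcohol drinkers, against 48.3% of all genes. In water drinkers 12 of the 15 and 17 of the 21 were lower with CNO, against 50.4% of all genes. The lower direction was thus shared by the other members under vehicle and in water drinkers, and the difference between the 15 and the 21 was not tested. These genes vary together and are not 15 independent observations.

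Rsph3b split the mice into separate levels. This gene (chr17:6904413-6948682, minus strand, GRCm38), a radial spoke stalk protein, lay between 5.50 and 6.96 CPM in 17 libraries and between 2.56 and 4.46 CPM in the other 28, with none between. The upper level held 3 of 12 mice of alcohol with CNO, 3 of 11 of alcohol with vehicle, 8 of 11 of water with CNO and 3 of 11 of water with vehicle, and Rsph3b was the member with the smallest p in alcohol against water under CNO and in CNO against vehicle in water drinkers. All 8 genes whose log2 CPM was most like that of Rsph3b in size of r, of 15851 compared, also lie on chromosome 17, which holds 4.94% of the genes tested, and their starts lie within 1.38 Mb of its own. The first was Tagap (chr17:7926000-7934897), a GTPase activating protein of T cells. Tagap lay between 8.96 and 11.4 CPM in the 17 upper libraries and between 3.19 and 6.84 in the other 28. Within the upper and lower libraries r was -0.00097 and 0.18, so the likeness rests on the split. The pseudogenes Tmem181b-ps and Tmem181c-ps went the opposite way. Rsph3a, a close copy of Rsph3b on the same chromosome, ranged from 4.06 to 6.16 CPM in the upper libraries and from 4.51 to 6.36 in the others. Reads of the copies may have been divided between them in counting, and the counting mode is not given in the sources used here.

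Dnah8 (chr17:30624354-30877365, plus strand), an outer arm heavy chain, had no gap of its own, but the gene most like it did. Its closest genes were Glo1 (chr17:30584936-30626871), which detoxifies methylglyoxal and whose annotated span overlaps the start of Dnah8, Btbd9 (chr17:30215524-30576488) and Rsph1 (chr17:31255019-31277383), in that order. Of the 8 genes most like Dnah8 in size of r, only these 3 lie on chromosome 17, unlike for Rsph3b. Glo1 lay between 69.4 and 112 CPM in 16 libraries and between 44.1 and 58.0 in the other 29. Dnah8 ranged from 0.844 to 2.67 CPM in the 16 and from 0.286 to 1.11 in the 29, so its levels overlapped. The 16 comprised 4 of 12 mice of alcohol with CNO, 3 of 11 of alcohol with vehicle, 4 of 11 of water with CNO and 5 of 11 of water with vehicle. Within the upper and lower libraries r of Dnah8 with Glo1 was 0.18 and 0.31. The files hold no genotypes, and without known strandedness reads where Glo1 and Dnah8 overlap cannot be assigned with certainty.

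**Figure D5:**
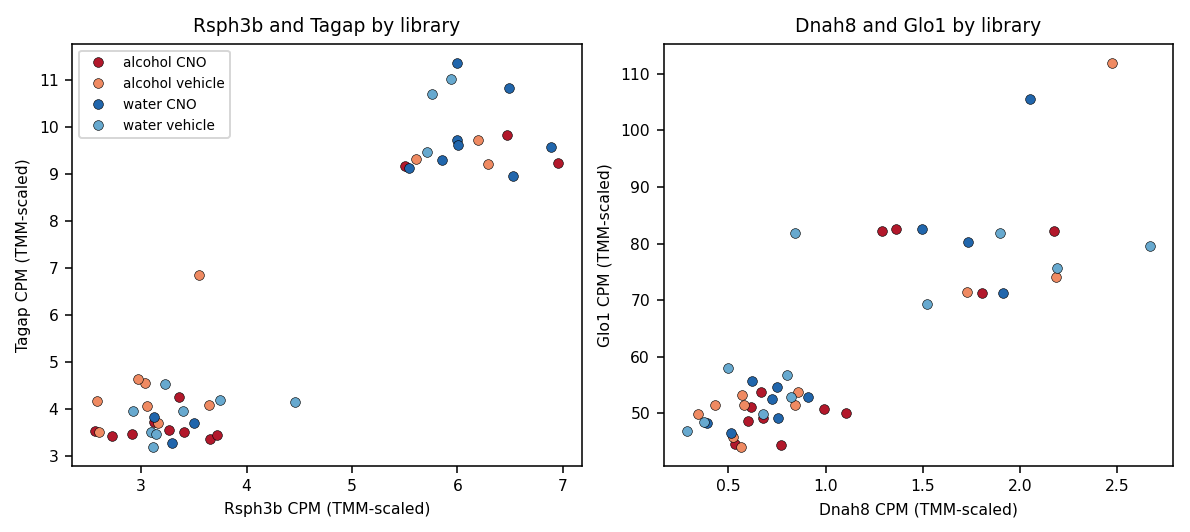
Level of Tagap against Rsph3b (left) and of Glo1 against Dnah8 (right) in each of the 45 libraries, in CPM after TMM scaling, coloured by group. On the left 17 libraries sit above 5 CPM of Rsph3b and at 8.96 CPM or more of Tagap, 8 of them from water with CNO, and on the right 16 libraries sit at 69.4 CPM or more of Glo1.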

How the data were processed

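RNA of nucleus accumbens punches was sequenced (Illumina TruSeq). The authors deposited raw read counts by gene symbol, 1 file a mouse, with no normalization. Per the submitters' processing notes FastQC, STAR and HTSeq 0.9.1 were used with GRCm38 (mm10); what STAR version, annotation, strand setting or counting mode they chose is not given in the sources used here. HTSeq's 5 summary rows were kept out of library sizes and tests. Those for reads outside genes and for ambiguous reads together held 16.2% to 22.5% of uniquely aligned reads.

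Genes were filtered with filterByExpr and scaled by TMM (factors near 1), and 1 model with 4 group means was fitted to all 45 libraries with edgeR 4.0.16 (R 4.3.3, glmQLFit, robust), with Benjamini-Hochberg adjustment over 15852 genes. Standard errors were approximated from the F statistic (log2 fold change over its square root). Correlations used log2 CPM (prior count 2), with two-sided p from 100000 permutations, adjusted over all genes tested in place of over each list. Coding lengths and gene positions come from GENCODE M21, promoters from RefSeq. The edgeR step was tested on simulated counts. DESeq2 1.42.0, limma 3.58.1 voom and other settings served as alternatives.

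Each library is 1 mouse, and the tests and correlations take mice as their units. The members and lists were chosen with earlier results of these data known. The text names the 4 markers in every contrast, the 5 members with the smallest p in each, the 5 most and 5 least like Foxj1, the 3 most abundant of each role and the 3 genes of each list with the largest r in size. Some listed genes are not reported here. Other genes were named after their values were seen, as were the X-box letters, the relation with reads outside genes and the chromosome 17 genes.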

Additional observations from a re-analysis of the deposited data

How the results depend on the processing

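The count of members called was 0 in each of the 7 contrasts under all alternatives but 1: with the share of reads outside genes as a covariate, chosen after seeing the data, 1 member (Cfap69, 0.19) was called for CNO averaged over fluids. This includes leaving out each of the 45 libraries in turn (count 0 to 0), DESeq2, limma, other filters and scaling, an adjusted p under 0.1, and fits without mouse 5 of alcohol with vehicle. The interaction of Ccdc153 changed sign to 0.10 with S-number blocks, 0.17 with limma and 0.0124 without mice 5 and 10 of alcohol with vehicle, and ranged from -0.44 to 0.0692 when single libraries were left out; that of Foxj1 was 0.0031 without those mice. The median interaction of the members turned to -0.0446 with the share of reads outside genes as a covariate, and their median for CNO in alcohol drinkers to 0.0099 without mouse 8 of alcohol with vehicle. The r with Foxj1 changed sign for Cfap61 (0.0148) and Dnah17 (0.0023) without TMM, and for Cfap20 (-0.0894) and Cfap36 (-0.0076) as deviations from group means. The cause was not tested. The members called with Foxj1 numbered 13 to 17 against 15, and the listed genes 35 to 67 against 45. No paired analysis was possible because the labels give no replicate numbers or pairs. Low counts limit Cfap53, Cfap52, Tmem212 and Dynlrb2, whose standard errors reach 0.22 to 0.40 in the averaged comparisons. Alcohol differences of -0.87 ± 0.40 for Tmem212 and -0.62 ± 0.22 for Cfap53, averaged over treatments, were not called. Differences of that size in these genes could therefore be missed.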
